A study of Rattus norvegicus with 29 samples.

Results

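Complement and clotting genes that hepatocytes express were followed in rat liver after oral pentamethylchromanol (PMCol). They comprised 33 listed genes: hepatocyte complement proteins, fibrinogen, the clotting factors that do not depend on vitamin K, and the inhibitors of these cascades. A gene was measured where an array row carried its symbol and no other. This gave 30 genes of 33, with 1 row each, among 27342 rows. C2 and Cfb were given no value because 1 row carried both symbols, and no row carried the symbol of C5.

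PMCol is the chromanol head group of vitamin E with a methyl group in place of its long side chain. Male Crl:CD Sprague-Dawley rats, 6 to 7 weeks old, were gavaged once a day with vehicle, which was 1% methylcellulose in water, or with PMCol. The groups were vehicle and 2000 mg/kg PMCol killed on day 8 after 7 doses (6 animals each), and vehicle (6 animals), 200 mg/kg (6 animals) and 2000 mg/kg (5 animals) killed on day 29 after 28 doses. RNA from the left liver lobe was hybridised to Affymetrix whole-transcript arrays, 29 in all, 1 per animal. The labels called the arrays biological replicates.

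The values were deposited on a log scale, taken here as log2, with each row centred on its median over the 29 arrays. They carry no absolute level, so genes could be compared by their differences between groups but not by abundance. For the same reason, whether the tissue holds the level of liver marker RNA that its label implies could not be read from the files. Array medians lay between -0.023 and 0.0287, and no pair of arrays correlated above 0.725. Because the livers were measured whole, fewer cells of a type and less RNA per cell cannot be told apart.

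The liver makes most of the proteins of both cascades. In complement, antibody or sugar patterns activate the C1 or mannose-binding lectin complexes, their proteases cleave the early components, C3 is split, and the terminal components assemble a pore in the target membrane. In clotting, the contact proteases and factor V feed thrombin generation, thrombin turns fibrinogen into fibrin, and plasmin dissolves the clot, with serpins restraining each step. Many of these genes are known as hepatocyte acute phase genes, and their promoters are known to be read by HNF1, HNF4, C/EBP and FOXA factors and, downstream of interleukin-6, STAT3.

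Members of this group that lie close together on a chromosome can be compared within each animal. The sequences of 7 promoters are shown for 3 such sets: the fibrinogen chains Fgg, Fga and Fgb on chromosome 2, the chains of C4b-binding protein, C4bpa and C4bpb, on chromosome 13, and prekallikrein, Klkb1, beside factor XI, F11, on chromosome 16. Each is the 250 bases before the annotated start in RefSeq's GRCr8 table, read 5′ to 3′ on the gene's own strand, and the first of 2 listed starts was used for Fga. Capitals mark matches, on either strand, to GTTAAT (an HNF1 motif), CAAAGTCCA (HNF4), TTGCNNAA (C/EBP), TGTTTAC (FOXA) or CTGGGAA (an interleukin-6 response element).
Fgg, chr2:170652833-170653082, plus strand: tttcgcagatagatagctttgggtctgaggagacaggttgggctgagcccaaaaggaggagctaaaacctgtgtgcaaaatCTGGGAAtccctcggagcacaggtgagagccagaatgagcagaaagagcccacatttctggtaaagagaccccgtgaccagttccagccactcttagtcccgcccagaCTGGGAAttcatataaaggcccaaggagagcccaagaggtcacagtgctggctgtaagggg
Fga, chr2:170671919-170672168, plus strand: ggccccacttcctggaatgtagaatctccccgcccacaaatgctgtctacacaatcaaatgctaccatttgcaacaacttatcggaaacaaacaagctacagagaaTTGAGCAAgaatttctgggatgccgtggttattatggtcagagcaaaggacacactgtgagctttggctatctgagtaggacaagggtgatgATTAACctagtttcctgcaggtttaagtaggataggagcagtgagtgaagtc
Fgb, chr2:170700876-170701125, minus strand: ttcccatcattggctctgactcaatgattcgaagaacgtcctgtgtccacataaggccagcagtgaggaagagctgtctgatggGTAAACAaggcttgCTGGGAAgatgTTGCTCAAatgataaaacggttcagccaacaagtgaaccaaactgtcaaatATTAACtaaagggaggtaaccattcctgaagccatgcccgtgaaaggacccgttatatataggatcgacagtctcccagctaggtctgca
C4bpa, chr13:44663472-44663721, minus strand: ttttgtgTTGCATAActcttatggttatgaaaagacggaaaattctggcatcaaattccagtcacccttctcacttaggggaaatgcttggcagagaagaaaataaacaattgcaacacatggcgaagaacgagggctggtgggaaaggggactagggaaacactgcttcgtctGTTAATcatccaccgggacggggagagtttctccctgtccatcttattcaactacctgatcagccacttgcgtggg
C4bpb, chr13:44683782-44684031, minus strand: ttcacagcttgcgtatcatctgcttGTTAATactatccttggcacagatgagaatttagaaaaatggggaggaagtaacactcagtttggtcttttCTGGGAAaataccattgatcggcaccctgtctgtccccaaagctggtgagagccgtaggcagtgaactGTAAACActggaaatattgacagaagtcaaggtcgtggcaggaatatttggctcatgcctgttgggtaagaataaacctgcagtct
Klkb1, chr16:53690976-53691225, plus strand: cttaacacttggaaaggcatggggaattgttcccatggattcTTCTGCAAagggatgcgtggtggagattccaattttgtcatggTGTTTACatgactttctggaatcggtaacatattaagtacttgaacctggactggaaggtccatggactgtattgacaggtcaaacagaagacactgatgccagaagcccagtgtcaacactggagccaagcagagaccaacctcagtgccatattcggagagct
F11, chr16:53720252-53720501, plus strand: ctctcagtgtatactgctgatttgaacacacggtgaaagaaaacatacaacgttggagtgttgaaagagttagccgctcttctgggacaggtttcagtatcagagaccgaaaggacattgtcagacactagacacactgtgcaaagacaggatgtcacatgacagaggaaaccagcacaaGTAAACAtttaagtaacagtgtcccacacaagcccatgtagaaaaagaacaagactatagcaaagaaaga

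Within the fibrinogen set the letters differed: Fgg held CTGGGAA at 2 places, Fga an HNF1 match and a C/EBP match, and Fgb all of HNF1, C/EBP, FOXA and CTGGGAA. Both C4b-binding protein promoters held an HNF1 half-site match, and C4bpb alone of the pair held FOXA and CTGGGAA matches. Promoter entries were matched for 23 of the 30 genes. Among these the HNF1 letters occurred in 7 (6.46% of 27457 rat promoters of the same length), the C/EBP letters in 11 (9.2%), the FOXA letters in 5 (3.25%), the interleukin-6 letters in 8 (9.33%) and the HNF4 letters in 0 (0.331%). A match is a string of letters and not a measured binding site.

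At day 8, after 7 doses of 2000 mg/kg, nearly the whole group was lower than in vehicle livers. Of the 30 genes, 27 fell and 0 rose at an adjusted p below 0.05, where 9.32% of all rows fell and 9.32% rose (limma, Benjamini-Hochberg adjustment over all rows). All 30 had a log2 fold change below 0, so no gene was higher at an unadjusted p below 0.05 either. The median was -0.35, from -1.45 to -0.09, against a median of -0.0049 over all rows. In 21 of the 30 genes every treated animal lay below every vehicle animal, as in 5.19% of all rows. The falls were mostly modest: 5 genes were lower by at least 1.5-fold and 3 by at least 2-fold.

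**Figure D1:**
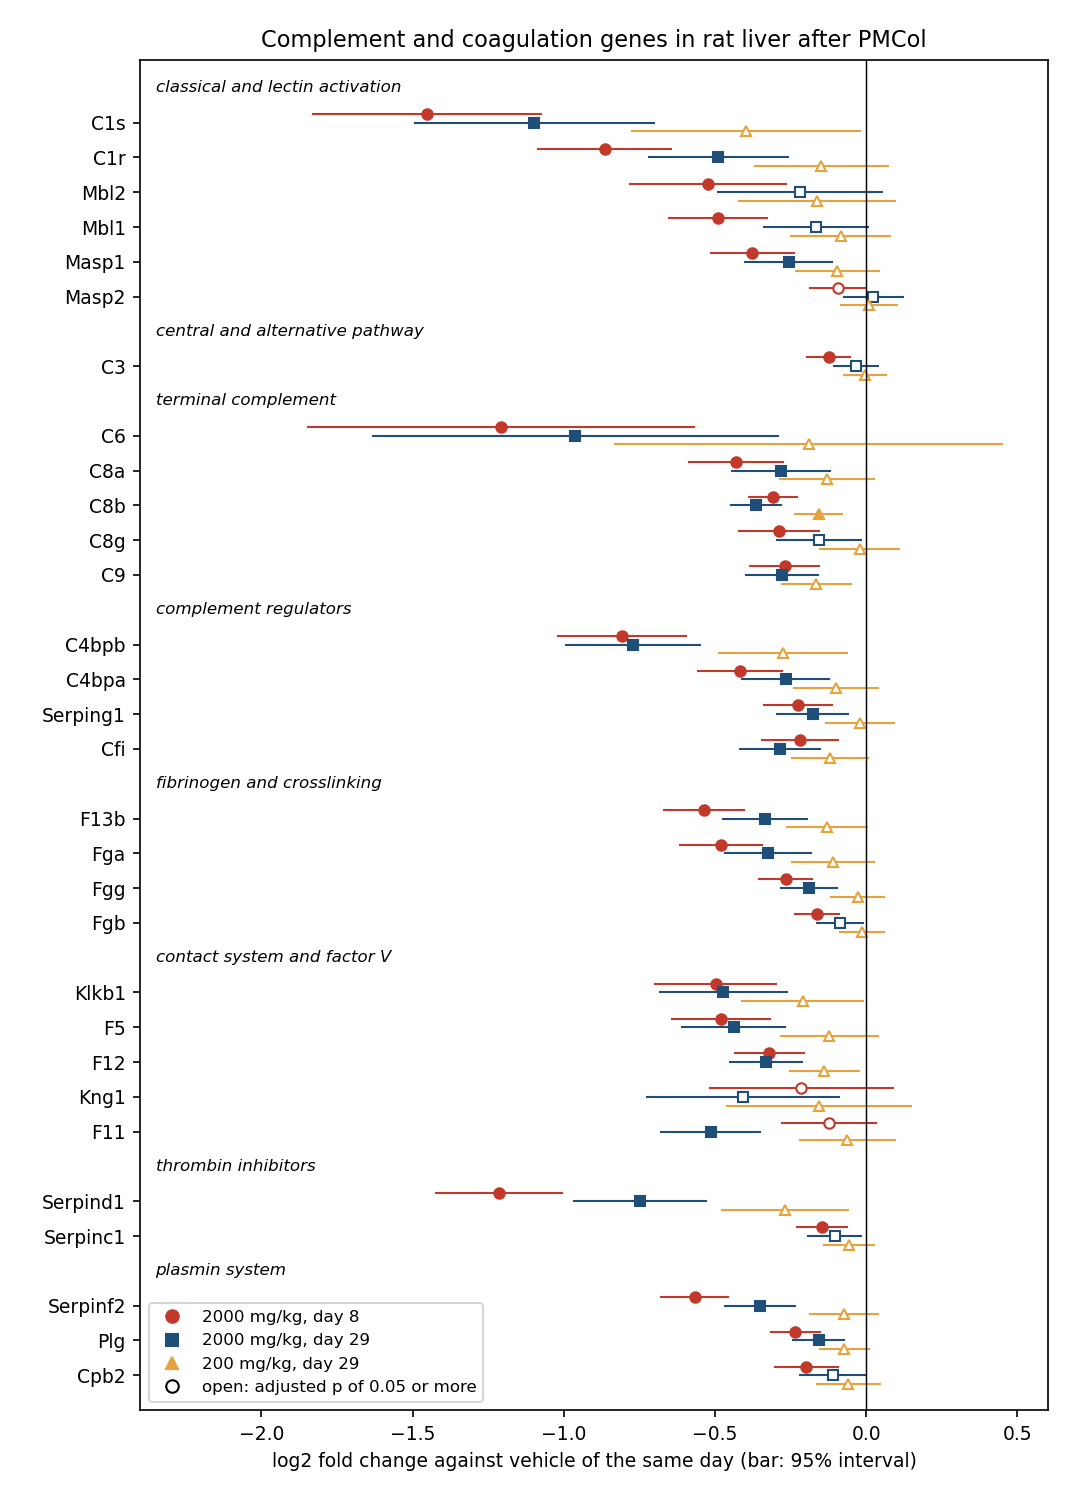
Log2 fold change of each of the 30 genes (vertical axis, ordered by role) for 2000 mg/kg PMCol against vehicle at day 8 and day 29 and for 200 mg/kg at day 29, with 95% confidence intervals as bars; filled symbols passed an adjusted p below 0.05. The day 8 values run from -1.45 for C1s to -0.09 for Masp2, and the 200 mg/kg values stay between -0.40 and 0.01.

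The activators of the classical and lectin pathways fell in 5 of 6 measured genes at day 8. C1s, the protease of the C1 complex that cleaves C4 and C2, moved most of all 30. Its centred log2 value ran from -0.14 to 0.44 in vehicle livers (median 0.14) and from -2.27 to -0.61 in treated livers (median -1.30). The treated animals were all below the vehicle animals but were widely spread among themselves. The log2 fold change was -1.45 ± 0.18 (standard error, as for every log2 fold change here; 6 treated and 6 vehicle animals), which is 2.74-fold lower (adjusted p = 1.08e-06).

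C1r, the protease that activates C1s, fell by less. Its values ran from -0.07 to 0.17 in vehicle and from -1.37 to -0.38 in treated livers, with no overlap, and the log2 fold change was -0.86 ± 0.11 (adjusted p = 8.28e-07). On the lectin side the mannose-binding lectins Mbl1 and Mbl2 changed by -0.49 ± 0.08 and -0.52 ± 0.13 and the protease gene Masp1 by -0.38 ± 0.07, all of them falls. Masp2, the lectin pathway protease that cleaves C4, was the exception: vehicle animals ran from 0.04 to 0.20 and treated animals from -0.08 to 0.09, which overlapped. Its log2 fold change was -0.09 ± 0.05 (adjusted p = 0.174).

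C3, on which all complement pathways converge, fell by a small amount. Treated values, from -0.22 to -0.04, overlapped the vehicle range of -0.15 to 0.07, and the log2 fold change was -0.12 ± 0.03 (adjusted p = 0.00989). With only the day 8 animals in the fit this call was lost (adjusted p = 0.0677).

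All 5 measured genes of the terminal pathway, whose products build the membrane pore, fell at day 8. C6, which joins the complex after C5b forms, had the largest difference and the widest scatter of them. Vehicle animals ran from -0.01 to 1.21 (median 0.45) and treated animals from -2.22 to -0.08 (median -0.34). The groups nearly touched, the lowest treated animal lay far below the treated median, and the log2 fold change was -1.21 ± 0.31, 2.31-fold lower (adjusted p = 0.00581). The chains of C8 fell by 0.43 ± 0.08 (C8a), 0.31 ± 0.04 (C8b) and 0.29 ± 0.06 (C8g) on the log2 scale. C9, which polymerises into the pore wall, fell by 0.27 ± 0.06 on that scale.

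The complement regulators fell in 4 of 4 genes. C4bpb, the chain of C4b-binding protein that carries protein S, ran from -0.0040 to 0.26 in vehicle and from -1.13 to -0.26 in treated livers. The groups did not overlap, and the log2 fold change was -0.81 ± 0.10, 1.75-fold lower (adjusted p = 1.26e-06). C4bpa, the chain that binds C4b, changed by -0.42 ± 0.07. Cfi, the protease that inactivates C3b and C4b, and Serping1, the C1 inhibitor, changed by -0.22 ± 0.06 and -0.23 ± 0.05.

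The genes of fibrin formation fell in 4 of 4 at day 8. F13b, the carrier subunit of the fibrin-crosslinking factor XIII, was tight in vehicle livers, at 0.12 to 0.22, and ran from -0.56 to -0.13 in treated livers. No treated animal reached the vehicle range, and the log2 fold change was -0.54 ± 0.06 (adjusted p = 4.46e-07). The 3 fibrinogen chains are assembled in equal numbers in the secreted protein, but their RNAs moved unequally: Fga by -0.48 ± 0.07, Fgg by -0.27 ± 0.04 and Fgb by -0.16 ± 0.04.

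Among the contact proteases and factor V, 3 of 5 genes fell at day 8. Klkb1, plasma prekallikrein, changed by -0.50 ± 0.10, F5, the cofactor of the prothrombin-cleaving complex, by -0.48 ± 0.08, and F12, which starts the contact pathway, by -0.32 ± 0.06. F11, the next protease in that pathway, did not pass the test at day 8. Its values ran from -0.11 to 0.21 in vehicle and from -0.38 to 0.02 in treated livers, which overlapped (-0.12 ± 0.08, adjusted p = 0.31). Kng1, kininogen, had a log2 fold change of -0.21 ± 0.15 (adjusted p = 0.373). Rats carry close copies of this gene, the T-kininogens, so the row may include signal from them.

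The thrombin inhibitors fell in 2 of 2 genes, by very different amounts. Serpind1, heparin cofactor II, held a narrow range of 0.17 to 0.34 in vehicle livers and ran from -1.38 to -0.50 in treated livers. The gap between the groups was wider than the whole vehicle range. Its log2 fold change was -1.22 ± 0.10, 2.32-fold lower, with the lowest adjusted p of the 30 genes (7.49e-10). Serpinc1, antithrombin, changed by -0.15 ± 0.04 (adjusted p = 0.0104).

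In the plasmin system 3 of 3 genes fell at day 8. Serpinf2, the main plasmin inhibitor, ran from -0.05 to 0.18 in vehicle and from -0.62 to -0.27 in treated livers. The groups did not overlap, with a log2 fold change of -0.57 ± 0.05 (adjusted p = 8.81e-09). Plg, plasminogen itself, changed by -0.23 ± 0.04, and Cpb2, which protects fibrin by removing the lysines that plasminogen binds, by -0.20 ± 0.05.

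**Figure D2:**
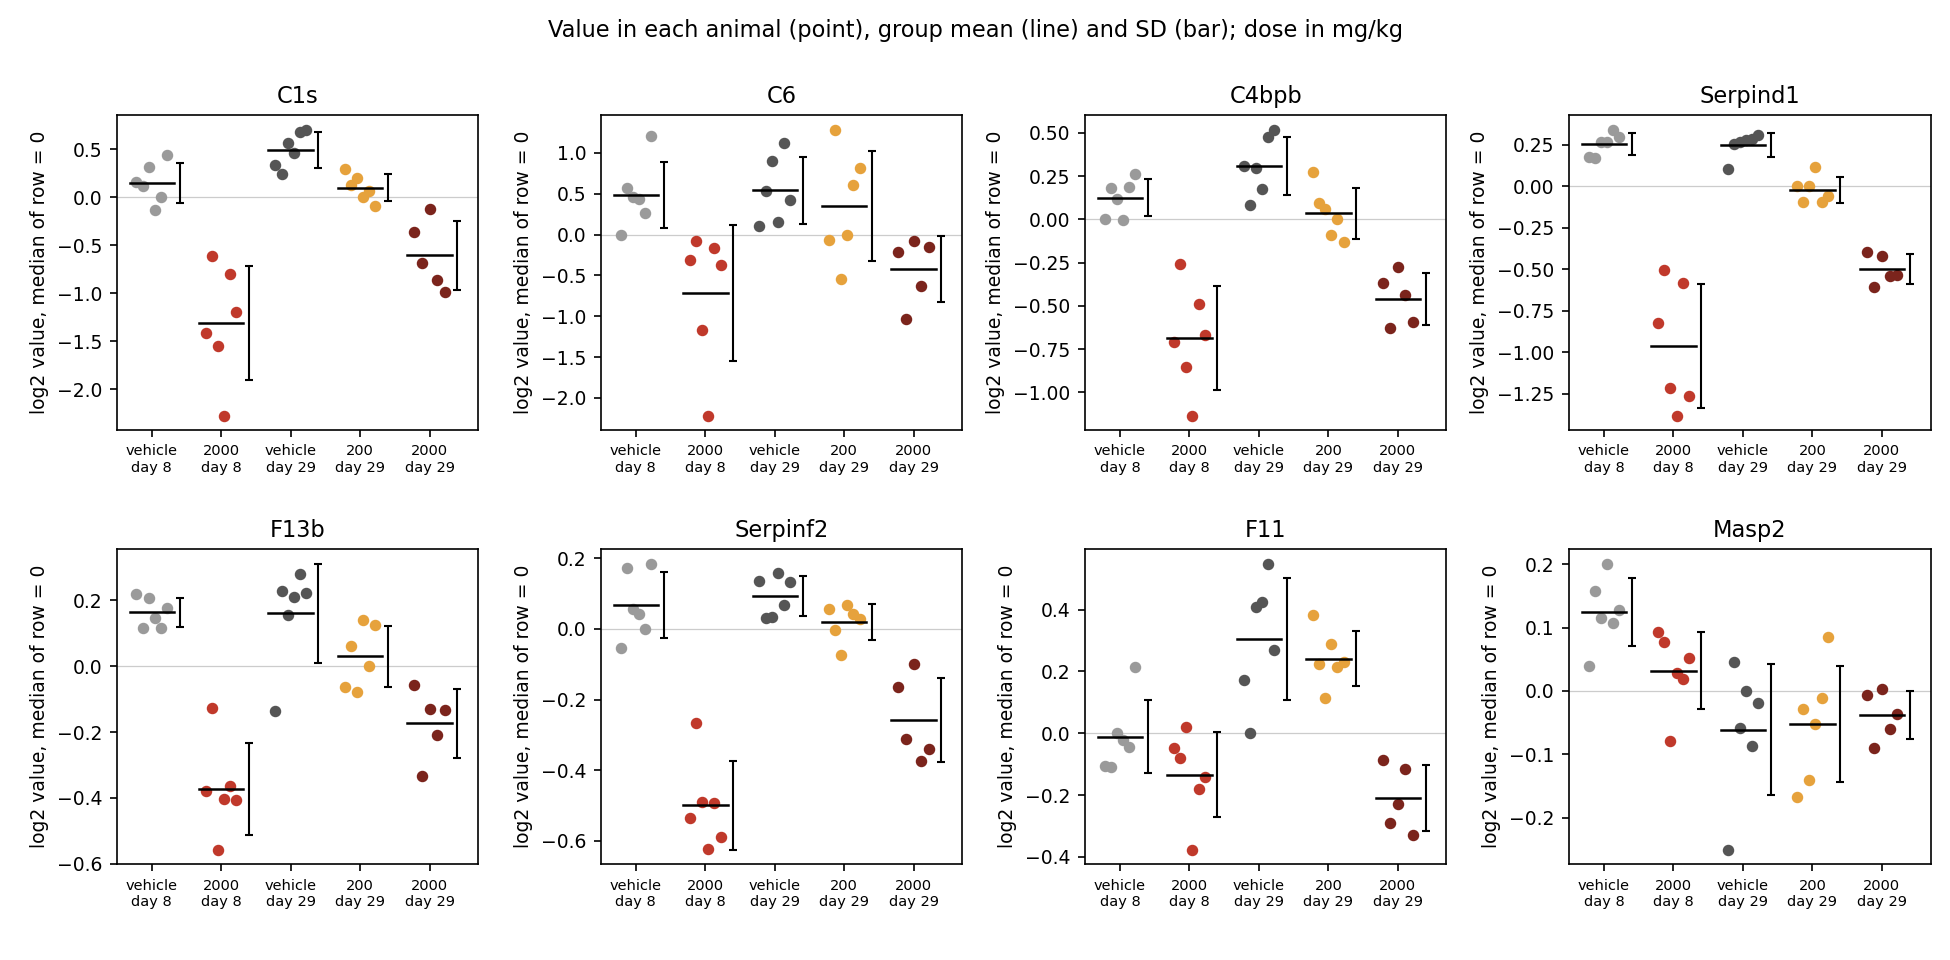
Centred log2 value of each animal (vertical axis) in the 5 groups (horizontal axis) for 8 genes, a panel each; points are animals, lines are group means and bars are SD. C1s, Serpind1 and C4bpb show both 2000 mg/kg groups below their vehicle groups with no overlap, while F11 overlaps at day 8 and is separate at day 29.

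At day 29, after 28 doses of 2000 mg/kg, 21 of the 30 genes were lower and 0 higher, where 9.55% of all rows fell and 12.1% rose. The median log2 fold change was -0.28, from -1.10 to 0.02, against 0.0025 over all rows. Of the 30 genes, 29 had a value below 0, and Masp2 alone was above it (after quantile normalization it was at -0.0014), and the count of higher genes at an unadjusted p below 0.05 was also 0. In 14 genes no treated animal reached the vehicle range, as in 4.99% of all rows. Leaving out 1 animal at a time gave 19 to 25 lower genes, and 25 was reached without vehicle replicate 1.

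C1s was again the lowest of the group. Its values were -0.12, -0.36, -0.68, -0.86 and -0.99 in the 5 treated livers and 0.24 to 0.70 in vehicle livers (median 0.51). Every treated animal was below every vehicle animal, and the log2 fold change was -1.10 ± 0.19, 2.14-fold lower (adjusted p = 9.67e-05). C1r changed by -0.49 ± 0.11 and Masp1 by -0.26 ± 0.07, and both fell, though Masp1 did not pass with only the groups compared. Mbl1 (-0.17 ± 0.08), Mbl2 (-0.22 ± 0.13) and Masp2 (0.02 ± 0.05) did not pass the test, which left 3 of 6 activators lower. C3 was at -0.03 ± 0.04 (adjusted p = 0.579).

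The terminal genes fell in 4 of 5. C6 was -0.08, -0.15, -0.21, -0.63 and -1.03 in the treated livers and 0.10 to 1.12 in vehicle livers. The groups were separate but close, since 3 treated animals lay just under the lowest vehicle animal. The log2 fold change was -0.96 ± 0.33 (adjusted p = 0.0341), and the call was lost when vehicle replicate 3 or 5 or treated replicate 2 or 4 was left out (adjusted p up to 0.103). C8b, by contrast, was tight, at -0.17, -0.17, -0.19, -0.23 and -0.32 against 0.09 to 0.20, with a log2 fold change of -0.36 ± 0.04 (adjusted p = 1.29e-07). C8a and C9 fell by 0.28 ± 0.08 and 0.28 ± 0.06 on the log2 scale, and C8g was at -0.16 ± 0.07 without passing.

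Complement regulators fell in 4 of 4 genes at day 29 as well. C4bpb was -0.28, -0.37, -0.43, -0.59 and -0.63 in treated livers against 0.08 to 0.52 in vehicle livers. The ranges were far apart, and the log2 fold change of -0.77 ± 0.11, 1.71-fold lower, had an adjusted p of 4.67e-06. Cfi, C4bpa and Serping1 changed by -0.28 ± 0.06, -0.27 ± 0.07 and -0.18 ± 0.06. The Serping1 call did not hold without treated replicate 4 or 5 or vehicle replicate 6 (adjusted p up to 0.0857), nor with only the groups compared.

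On the clotting side, F11 was lower at day 29. Its values were -0.09, -0.12, -0.23, -0.29 and -0.33 in treated livers and 0.0018 to 0.55 in vehicle livers. No treated animal was above 0 and no vehicle animal below it, with a log2 fold change of -0.51 ± 0.08 (adjusted p = 2e-05). The F11 means at day 8 and day 29 were -0.01 and 0.30 in vehicle livers and -0.13 and -0.21 in treated livers. The vehicle groups thus differed between the days, and the part of that difference in the day 29 result was not tested. The other contact genes and F5 changed by -0.47 ± 0.10 (Klkb1), -0.44 ± 0.08 (F5) and -0.33 ± 0.06 (F12), all falls, and Kng1 by -0.41 ± 0.16 (adjusted p = 0.0603), which did not pass. Serpind1 was -0.39, -0.42, -0.54, -0.54 and -0.61 in treated livers and 0.11 to 0.31 in vehicle livers. That gap again left no overlap, and its log2 fold change was -0.75 ± 0.11, 1.68-fold lower (adjusted p = 5.66e-06).

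Of the fibrin genes, Fga (-0.33 ± 0.07), Fgg (-0.19 ± 0.04) and F13b (-0.33 ± 0.07) fell. Fgb was -0.01, -0.01, -0.03, -0.04 and -0.10 in treated livers against 0.01 to 0.09 in vehicle livers, so the groups did not overlap, but -0.09 ± 0.04 did not pass (adjusted p = 0.1). Serpinf2 and Plg fell by 0.35 ± 0.06 and 0.16 ± 0.04 on the log2 scale. Serpinc1 and Cpb2 were at -0.10 ± 0.04 and -0.11 ± 0.05 and did not pass.

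Across both days 20 genes were lower at each, which is 74.1% of the day 8 falls and 95.2% of the day 29 falls. The share of all rows lower at both days was not counted, so these percentages have no background beside them. C3, C8g, Cpb2, Fgb, Mbl1, Mbl2 and Serpinc1 passed at day 8 alone, F11 at day 29 alone, and Kng1 and Masp2 at neither. The day 8 and day 29 comparisons have separate vehicle animals. Passing on 1 day alone does not show that the effect differed, and the test of that difference called 0 of the 30 genes in either direction, where 0.775% of all rows were called (limma). At an unadjusted p below 0.05 there were 6 genes, 5 of them less negative at day 29. The share of all rows at that cutoff was not counted, so no trend between the days can be read from these 6.

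The largest differences between the days, as the day 29 effect minus the day 8 effect, were those of Serpind1 (0.47 ± 0.15, adjusted p = 0.127) and C1r (0.38 ± 0.16, adjusted p = 0.253) in the positive direction. F11 (-0.39 ± 0.11, adjusted p = 0.0843) and Kng1 (-0.19 ± 0.21, adjusted p = 0.733) were the most negative. The F11 difference passed without vehicle day 29 replicate 2 and the Serpind1 difference passed without treated day 8 replicate 2, at adjusted p values of 0.0225 and 0.0331. F11 also differed between the vehicle groups of the 2 days.

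At the lower dose few of these genes passed the test. With 200 mg/kg at day 29, 1 of 30 genes was lower and 0 higher, where 1.42% of all rows fell and 1.37% rose. The median log2 fold change was -0.11, from -0.40 to 0.01, against 0.0033 over all rows. Of the 30 values 29 were below 0, where 13191 of 27342 rows were. At an unadjusted p below 0.05 there were 7 lower genes and 0 higher, and the share of all rows at that cutoff was not counted. The 1 call was C8b, whose values ran from -0.07 to 0.06 at 200 mg/kg and from 0.09 to 0.20 in vehicle livers. The groups did not overlap, as for 0.684% of rows in the lower direction, and the log2 fold change was -0.16 ± 0.04 (adjusted p = 0.0214). Without vehicle replicate 6 or 200 mg/kg replicate 5 this call was lost (adjusted p up to 0.0589), and it was also lost with only the groups compared.

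The most negative values at 200 mg/kg were those of C1s (-0.40 ± 0.18, adjusted p = 0.327), C4bpb (-0.28 ± 0.10, adjusted p = 0.177) and Serpind1 (-0.27 ± 0.10, adjusted p = 0.183). With only the groups compared C1s passed (adjusted p = 0.0475), and Serpind1 passed there (0.0155) and after quantile normalization (adjusted p = 0.0256). For Serpind1 the 200 mg/kg animals ran from -0.09 to 0.12, between the other day 29 groups apart from a small overlap with vehicle. The most positive values were those of Masp2 (0.01 ± 0.05), C3 (-0.0035 [-0.07 to 0.07]) and Fgb (-0.01 [-0.09 to 0.06]), where brackets after an estimate give its 95% confidence interval.

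Set directly against 200 mg/kg, 2000 mg/kg at day 29 gave 10 lower genes and 0 higher, where 3.84% of all rows fell and 6.05% rose. The 10 were C1s, C4bpb, C8b, F5, F11, F12, Fga, Fgg, Serpind1 and Serpinf2, and the median over all 30 was -0.17. In 10 of the 30 genes every 2000 mg/kg animal lay below every 200 mg/kg animal, as in 2.5% of all rows. C1s had a log2 fold change of -0.70 ± 0.19 (adjusted p = 0.0179), with 200 mg/kg animals from -0.10 to 0.29 and no overlap with 2000 mg/kg. F11 (-0.45 ± 0.08, adjusted p = 0.000334) and C4bpb (-0.50 ± 0.11, adjusted p = 0.00286) were also separate between the doses. C6 was at -0.77 ± 0.33 without passing (adjusted p = 0.148), and its 200 mg/kg animals ran from -0.54 to 1.29. At the other end were Masp2 (0.01 [-0.08 to 0.11]) and C3 (-0.03 ± 0.04). Without 2000 mg/kg replicate 4, or without replicate 5, the count fell to 6, and the calls of C1s, Fga, Fgg and F12 were lost (adjusted p up to 0.075, 0.164, 0.0612 and 0.131). Of the 11 fits that each left out 1 animal, Fga passed in 3 and F12 in 6, and F5 was lost without 2000 mg/kg replicate 2. C4bpb, C8b, F11, Serpind1 and Serpinf2 passed in every alternative run. The comparisons of the 2 doses with vehicle share the same vehicle animals.

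The vehicle livers themselves differed little between the days in these genes. From day 8 to day 29, 1 gene was lower and 1 higher, where 1.77% of all rows fell and 0.962% rose, so the share was near that of all rows. F11 was higher at day 29 (0.31 ± 0.08, adjusted p = 0.0256) and Masp2 lower (-0.19 ± 0.05, adjusted p = 0.0261). Neither call held in every alternative (adjusted p up to 0.0766 and 0.0701 with 1 animal left out). C1s (0.35 ± 0.18) had the most positive and Mbl2 (-0.27 ± 0.13) the most negative value, and neither passed.

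**Figure D3:**
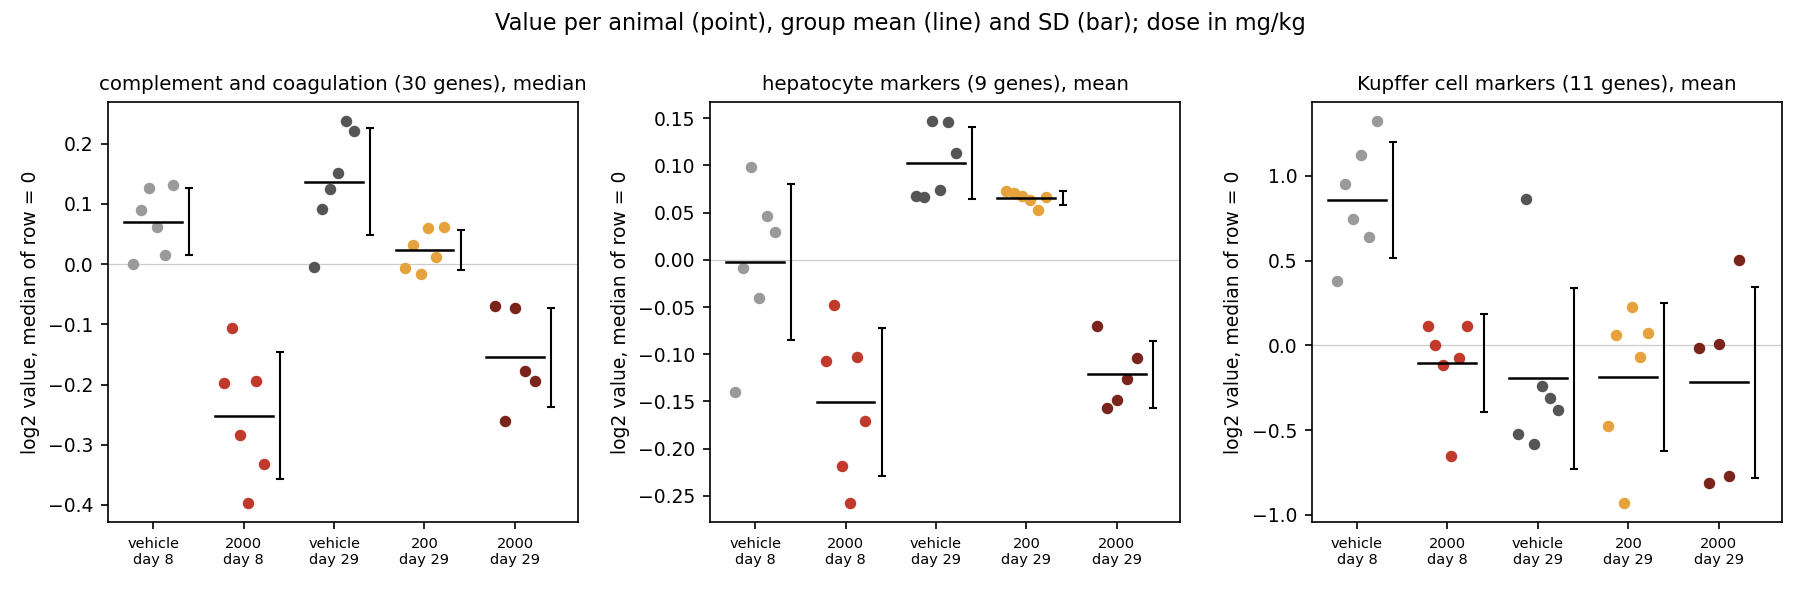
Per-animal summaries (vertical axis, centred log2) in the 5 groups (horizontal axis) for the 30 complement and clotting genes and for the marker lists of hepatocytes and Kupffer cells; each point is 1 animal, lines are group means and bars are SD. The gene medians of the 2000 mg/kg animals, from -0.397 to -0.106 at day 8 and -0.260 to -0.0700 at day 29, lie below every vehicle animal of the same day, whereas the Kupffer cell markers stand high in the day 8 vehicle animals, from 0.379 to 1.32.

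Markers of other liver cells were read beside these falls. For these and the lists that follow, 9.32% of all rows fell and 9.32% rose at 2000 mg/kg at day 8. At day 29, 9.55% fell and 12.1% rose. At 200 mg/kg 1.42% fell, and from day 8 to day 29 in vehicle livers 1.77% fell. Of 12 markers of Kupffer cells, the resident liver macrophages, 11 were measured, and all 11 were lower at 2000 mg/kg at day 8 (median log2 fold change -0.98). Their mean per animal ran from 0.379 to 1.32 in the day 8 vehicle livers and from -0.656 to 0.115 in the treated livers. All 11 were also lower in day 29 than in day 8 vehicle livers, so the day 8 vehicle animals stood high. At day 29, 0 of the 11 passed in either direction at 2000 mg/kg (median -0.06), with means of -0.810 to 0.501 in treated and -0.582 to 0.866 in vehicle livers. Their part in the day 8 result was not tested.

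Of the hepatocyte markers, 9 of 10 were measured. At 2000 mg/kg 5 were lower at day 8 (median -0.17) and 4 at day 29 (median -0.14). Their mean per animal ran from -0.139 to 0.0986 in vehicle and from -0.257 to -0.0478 in treated livers at day 8, which overlapped. At day 29 it ran from 0.0664 to 0.147 in vehicle and from -0.157 to -0.0697 in treated livers, which did not. Alb, serum albumin, was at 0.01 ± 0.04 and -0.02 ± 0.04 on the log2 scale and did not pass at either day. Of 9 measured stellate cell markers 3 fell and 1 rose at day 8, and 8 fell at day 29 (median -0.66). Of 5 measured endothelial, 6 lymphocyte and 6 platelet and erythrocyte markers, 2, 2 and 1 fell at day 8 and 0 of each passed at day 29. Of the 5 endothelial markers, 4 were lower in day 29 than in day 8 vehicle livers (median -0.67). Of 3 bile duct markers 1 rose at each day. The part of these markers in the results was not tested.

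Other genes of the same cascades gave the setting. Of 18 measured complement genes outside the group, 9 fell and 0 rose at day 8. They included the macrophage genes of the C1q subcomponent, C1qa (-1.08 ± 0.19), C1qb (-1.10 ± 0.25) and C1qc (-0.82 ± 0.17), and properdin, Cfp (-1.09 ± 0.23), which stabilises the alternative pathway convertase. C1qa, C1qb and C1qc are also on the Kupffer cell marker list, so their falls are counted in both lists and are not separate observations. Like that whole list, they were lower in day 29 than in day 8 vehicle livers. Of the 18 complement genes, 6 were lower in that comparison, as were 1.77% of all rows. At day 29, 5 of the 18 fell. C7, a terminal component, was lower at both days (-0.79 ± 0.21 and -0.92 ± 0.22), and the collectins Colec10 (-0.84 ± 0.17) and Colec11 (-0.71 ± 0.13), which activate the lectin pathway, fell at day 29.

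The vitamin K-dependent factors, measured in 6 of 7 genes, fell in 5 at day 8 and 4 at day 29, with 0 higher. Proc, protein C, an anticoagulant protease, changed most (-0.48 ± 0.04 and -0.36 ± 0.05). F2, prothrombin, was at -0.30 ± 0.04 and -0.30 ± 0.04, F7 at -0.30 ± 0.05 and -0.29 ± 0.06, and F10 at -0.28 ± 0.05 and -0.17 ± 0.05, and all passed at both days. Proz, the cofactor of a factor X inhibitor, passed at day 8 (-0.41 ± 0.08) and was at -0.07 ± 0.08 at day 29, while Pros1, protein S, did not pass (-0.17 ± 0.08 and -0.18 ± 0.09). F2 was the 1 gene of the 6 called at 200 mg/kg (-0.14 ± 0.04).

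Not every gene of the clotting system was lower. Of 21 other measured clotting genes, 5 fell and 3 rose at day 8, where 9.32% of all rows fell and 9.32% rose. At day 29, 5 fell and 4 rose, where 9.55% of all rows fell and 12.1% rose. The rises are few genes of a short list, so they are not read as a trait of that list. Tfpi, the inhibitor of the tissue factor pathway, rose at both days (0.43 ± 0.12 and 0.46 ± 0.12). Lman1, the cargo receptor that carries factors V and VIII out of the endoplasmic reticulum, rose too (0.32 ± 0.07 and 0.72 ± 0.07), while F5 itself fell. Habp2, a protease that cleaves factor VII, changed by -0.67 ± 0.06 and -0.35 ± 0.06, and Fgl1, a fibrinogen-related liver protein, by -0.40 ± 0.13 and -0.85 ± 0.13, all of them falls.

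Falls also occurred among other secreted liver proteins. Of 19 measured acute phase genes 13 fell and 1 rose at day 8, and 14 fell and 2 rose at day 29. A2m, alpha-macroglobulin, a protease trap and acute phase protein of the rat, changed by -1.93 ± 0.24 and -0.96 ± 0.25. Of 18 measured genes of other plasma proteins 12 fell at day 8 and 11 at day 29, with 0 higher, as for Itih1, a chain of the inter-alpha-inhibitors (-0.76 ± 0.07 and -0.74 ± 0.07). These lists share some genes with each other.

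Among 21 measured genes for hepatocyte transcription factors and cytokine signalling, 11 fell and 0 rose at day 8, and 7 fell and 1 rose at day 29. Onecut1, a hepatocyte transcription factor also called HNF6, had the largest change (-1.44 ± 0.30 and -2.19 ± 0.32). Foxa1 changed by -0.78 ± 0.10 and -0.59 ± 0.11, both falls. Il6r, the interleukin-6 receptor, fell at day 8 (-0.46 ± 0.11) and was at -0.22 ± 0.11 at day 29, and Socs3, a feedback inhibitor of that receptor's signalling, was at -0.27 ± 0.15 at day 8 and rose at day 29 (0.73 ± 0.16). Their part in the falls was not tested.

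In several pairs of genes that lie close together on a chromosome, one fell more than the other. Of 6 such pairs, 5 were direct neighbours among protein-coding genes. C4bpa and C4bpb were not, and were added as chains of the same protein. The pairs were picked with the gene values in view, so the p-values are no independent support for the differences. For each pair the difference between the genes was taken in each animal and compared between 2000 mg/kg and vehicle. These made 12 two-sided exact permutation tests, whose smallest possible p was 0.00216 at day 8 and 0.00433 at day 29. Since it is not known whether an offset was added before the logarithm, the tests show unequal measured change and no more.

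**Figure D4:**
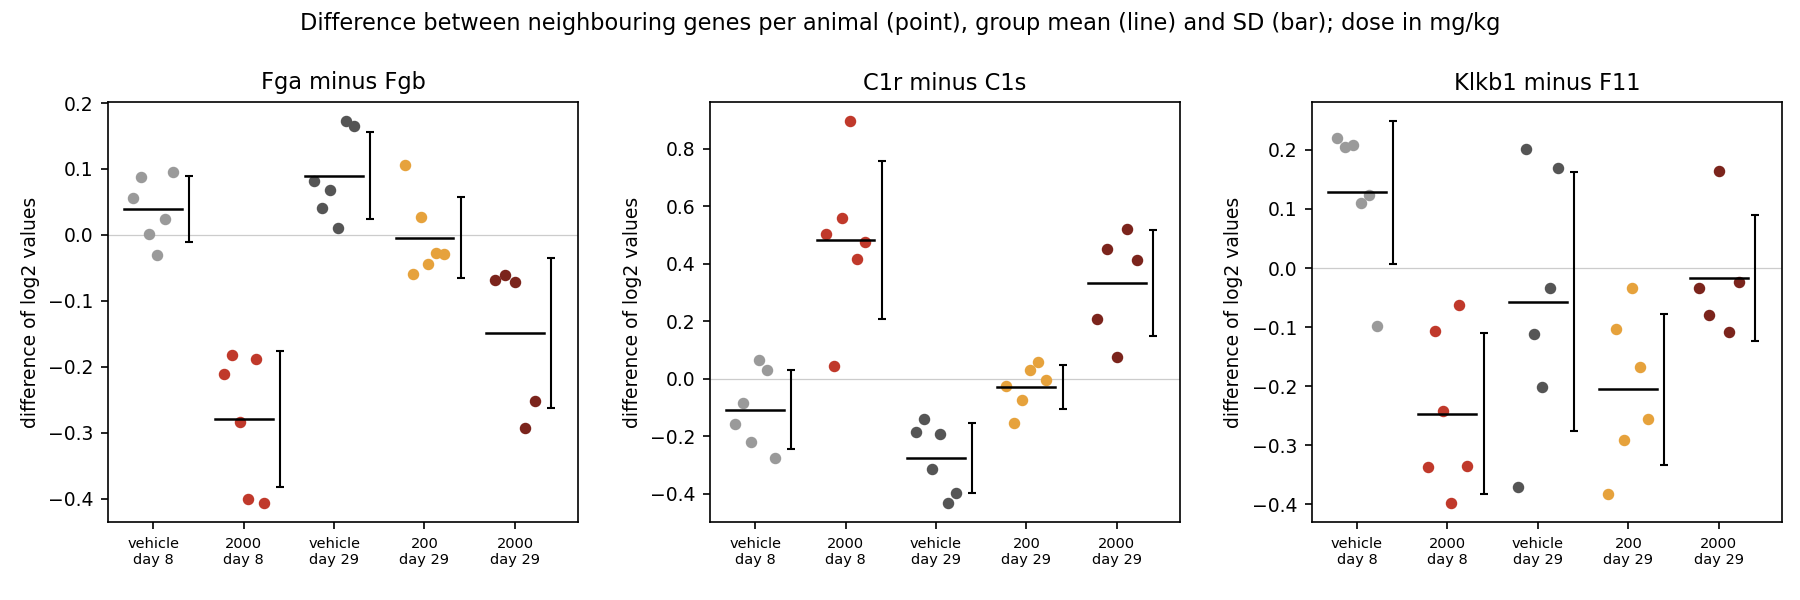
Difference in centred log2 value between the genes of 3 pairs (vertical axis) for each animal in the 5 groups (horizontal axis); points are animals, lines are group means and bars are SD. For Fga minus Fgb the treated animals of both days, from -0.407 to -0.182 at day 8 and -0.293 to -0.0607 at day 29, lie below every vehicle animal of their day.

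Fga fell more than Fgb. Fga minus Fgb averaged -0.279 ± 0.104 (SD, n = 6) after PMCol and 0.0393 ± 0.0497 (SD, n = 6) after vehicle at day 8 (exact permutation p = 0.00216, adjusted over the 12 tests 0.00649). At day 29 it averaged -0.149 ± 0.114 (SD, n = 5) and 0.0899 ± 0.0659 (SD, n = 6) (exact permutation p = 0.00433, adjusted 0.00649). The groups did not overlap on either day. Fga also fell more than Fgg: Fgg minus Fga was higher in treated livers by 0.214 at day 8 (exact permutation p = 0.00216, adjusted 0.00649) and by 0.136 at day 29 (exact permutation p = 0.0173, adjusted 0.0231), when the groups overlapped.

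C1s fell more than C1r, its neighbour on chromosome 4. C1r minus C1s was higher in treated livers by 0.589 at day 8 and by 0.610 at day 29 (exact permutation p = 0.00433 at each day, adjusted 0.00649). At day 29 the groups were separate, and at day 8 they overlapped. In the added pair, C4bpb fell more than C4bpa. C4bpa minus C4bpb was higher in treated livers by 0.392 at day 8 and 0.505 at day 29 (exact permutation p = 0.00433 at each, adjusted 0.00649). For this pair too the groups overlapped at day 8 and were separate at day 29.

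Klkb1 fell more than F11 at day 8, although the groups overlapped in the difference between the genes. Klkb1 minus F11 averaged -0.246 ± 0.136 (SD, n = 6) after PMCol and 0.128 ± 0.120 (SD, n = 6) after vehicle (exact permutation p = 0.00433, adjusted 0.00649). At day 29 their difference was 0.041 between the groups (exact permutation p = 0.697), when F11 was lower too. The vehicle median of Klkb1 minus F11 was 0.164 at day 8 and -0.072 at day 29. C8b and C8a, neighbours on chromosome 5, gave differences of 0.121 at day 8 and -0.0819 at day 29, neither past the test (exact permutation p = 0.13 and 0.342).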

How the data were processed

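Liver RNA of 29 rats was measured on Affymetrix whole-transcript arrays, 1 per animal. The deposited log2 values carry no stated log base, and base 2 was taken here; each row is centred on its median over the 29 arrays in the file. PLIER and MAS5 are named in the submitters' processing notes, without role or version. The normalization, and any offset added before the logarithm, are not stated in the labels or the file.

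Rows were named from the platform annotation, which gave 1 symbol for 15097 rows, several for 323 and none for 11922; all 30 genes matched the GRCr8 gene table by Entrez ID. Group means over all 29 arrays were fitted with limma 3.58.1 (R 4.3.3) on 27342 rows with no filter, and p-values (two-sided) were adjusted by the Benjamini-Hochberg method, with a threshold of 0.05. A group was called separate where all its animals lay on one side of the other group's. Paired genes were compared with exact permutation tests (scipy 1.17.1). The limma script was tested on simulated data. The number of arrays limits the precision.

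Genes with full values were the 3 most negative and 3 most positive in each comparison with vehicle, the 2 most negative and 2 most positive in the other 3 comparisons, and the gene of largest change in each role; C8b and the gene pairs fall outside that rule and were picked with their values in view. Of each other list up to 6 called genes were eligible, with every vitamin K-dependent factor. Alb, which was not called at either day, was named outside that rule. The genes and lists were chosen with earlier results of these data known. Alternatives were quantile normalization, median centring, robust moderation, array weights, only the groups compared, rows with 1 symbol, a threshold of 0.01, a replicate block and each animal left out.

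Replicate numbers gave no clear sign of pairing the animals. Deviations from the group means correlated at a median of 0.0099 between arrays of the same number and 0.0036 between arrays of different numbers. Of 56 pairs with the same number, 12 correlated above 0.1, which was not counted for different numbers.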

Additional observations from a re-analysis of the deposited data

Results flagged for a closer look

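In 9 of 150 combinations of gene and group, 1 animal stood apart from the others by Dixon's test, which chance alone does in about 1 of 20 groups. In the day 8 vehicle group these were the lowest Fgb value (-0.12 in replicate 1, next -0.02), the highest F11 value (0.21 in replicate 6) and the highest Klkb1 value (0.21 in replicate 3, next 0.12). In the day 29 vehicle group replicate 1 was the lowest for C8a (-0.2, next 0.19), C8g (-0.21, next 0.03), F13b (-0.14, next 0.16) and Serpind1 (0.11, next 0.25), which made 4 of the 9. F5 was low in 200 mg/kg replicate 1 (-0.29, next -0.07). Serpinf2 was high in 2000 mg/kg day 8 replicate 2 (-0.27, next -0.49), still below all vehicle animals. Without the day 29 vehicle replicate 1, 25 of the 30 genes were lower at 2000 mg/kg on day 29, against 21 with it.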

How the results depend on the processing

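At day 8, 27 genes were lower whichever animal was left out, and 24 of the 27 passed under every alternative; at day 29 the count without 1 animal ran from 19 to 25, and 17 of the 21 passed under every alternative. For 200 mg/kg the lower count was 2 after quantile normalization, 2 with only the groups compared, 0 at a threshold of 0.01 and 0 to 1 without 1 animal. For 2000 against 200 mg/kg it was 5 at a threshold of 0.01 and 6 to 11 without 1 animal. Between the vehicle groups the lower and higher counts were each 0 with only the groups compared and at 0.01, and 0 to 1 without 1 animal. For the change between days the lower count was 1 with array weights, 1 without vehicle day 29 replicates 1 and 2 (an alternative chosen after seeing the data), and the lower and higher counts were each 0 to 1 without 1 animal. The sign changed under at least 1 alternative in 0 genes at day 8, 1 at day 29, 4 at 200 mg/kg, 2 between doses, 6 between the vehicle groups and 7 for the change between days, none of them a call. The gene at day 29 was Masp2, those at 200 mg/kg were Masp2, C3, C8g and Serping1, and those between doses were Masp2 and Mbl2. Masp2 was at -0.0014 at day 29 after quantile normalization (lowest of all alternatives -0.014) and at -0.0084 at 200 mg/kg after quantile normalization and -0.011 without those 2 vehicle animals (lowest -0.029). Between doses Masp2 was at -0.00038 with array weights and ran from -0.0082 to 0.042 without 1 animal, with -0.0029 without 200 mg/kg replicate 3. C3 at 200 mg/kg was at 0.00015 without 200 mg/kg replicate 2 (highest of all alternatives 0.0070). The cause was not tested.

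With a replicate block, the lower counts were 27 at day 8, 20 at day 29, 1 at 200 mg/kg and 10 between the doses, the Serping1 call at day 29 was lost, and the vehicle comparison kept counts of 1 lower and 1 higher, while the change between days had 0. By pairing, 3 of 29 arrays correlated best with an array of their own number. The mean over several rows of a gene was not run because each gene had 1 row. The values are centred, so signal over background was not available to limit them.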
